A study of Mus musculus with 32 samples.

Results

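The genes described here are 48 mouse genes of DNA replication and S phase, chosen by name from the 53700 genes of a table of read counts, in which each of the 48 was found by its Ensembl identifier. They were measured by RNA sequencing of whole kidney tissue from male C57BL/6 mice in 3 groups: wildtype (8 mice), *Pkd1* knockout (PKD, 12 mice) and *Pkd1* knockout given the salicylate prodrug salsalate in the chow (PKD + Salsalate, 12 mice). PKD mice were of the iKspCre-Pkd1del line, in which a tamoxifen-inducible Cre driven by the kidney-specific cadherin promoter removes the floxed exons 2 to 11 of *Pkd1* in tubular epithelial cells. They received 150 mg/kg tamoxifen on postnatal days 18 and 19 and were 95 days old at collection. PKD + Salsalate mice received the same tamoxifen and, for the last 2 weeks, from day 81, 2.5 g of salsalate per kg of chow. Wildtype mice received neither tamoxifen nor salsalate and were 109 days old, so deletion, tamoxifen and age cannot be told apart in any comparison with wildtype. The study chose the mice of both PKD groups from a larger cohort for a similar and mild cystic disease.

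Before a cell divides, the origin recognition complex (ORC), *Cdc6* and *Cdt1* load the ring-shaped MCM helicase onto origins of replication, a step called licensing. At the start of S phase *Cdc45* and the GINS complex turn the loaded ring into an active helicase, DNA polymerases copy the strands, and the sliding clamp *Pcna* holds them on the template. Many of these genes are targets of the E2F transcription factors, which are released when cyclin-dependent kinases inactivate the retinoblastoma protein. In the adult kidney most tubular cells are quiescent, while cyst-lining cells are known to proliferate.

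E2F proteins bind sequences close to the start of their target genes, so the promoters were read for such a word. In the 300 bases from 250 before to 50 after the annotated start, 18 of the 48 promoters (37.5%) held at least 1 of the words TTTCCCGC, TTTCGCGC, TTTGCCGC and TTTGGCGC, on either strand. The same words were in 2.77% of the promoters of all 21626 protein-coding genes in the table with a start in GENCODE vM39 on GRCm39. The CCAAT word was in 28 of the 48 (58.3%) against 39.9% of all these promoters. The words TTTGAA and TTCGAA, the core of an element found in many mitosis genes, were in 4 of the 48 (8.33%) against 18.8%. The GC content was alike, with a median of 56.2% for the 48 genes and 54.3% for all. A match is a description of the letters and not a measured binding site. The stretches of 30 bases below show the words, in capitals, in 9 of the genes whose values are described further on, including *E2f1* itself and the 3 licensing genes with the largest change. Each stretch reads 5′ to 3′ on the strand of the gene.
*E2f1* (chr2:154411784-154411813, minus strand): ctttcGCGGCAAAaaggaTTTGGCGCgtaa
*Mcm3* (chr1:20890490-20890519, minus strand): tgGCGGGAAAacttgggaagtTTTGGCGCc
*Mcm4* (chr16:15455470-15455499, minus strand): ccggccccgggTTTCCCGCcaaaacgcaat
*Mcm5* (chr8:75835975-75836004, plus strand): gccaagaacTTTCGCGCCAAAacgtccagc
*Mcm6* (chr1:128287532-128287561, minus strand): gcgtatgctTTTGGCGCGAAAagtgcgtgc
*Gins1* (chr2:150751496-150751525, plus strand): ttgagcctaTTTGGCGCCAAAgcgaggagc
*Cdc6* (chr11:98798647-98798676, plus strand): gaaggctgaagtagagcggcTTTGGCGCga
*Dtl* (chr1:191307646-191307675, minus strand): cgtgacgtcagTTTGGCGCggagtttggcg
*E2f8* (chr7:48530941-48530970, minus strand): tcccgctttccGCGCCAAAtttttaaatcg
In *Mcm5*, *Mcm6* and *Gins1* 2 words on opposite strands overlap in 1 run of capitals. In *Mcm5* the first word began 156 bases before the start, and in *Dtl* at base 6 of the transcript. None of the 4 words was in the 300-base promoters of *Mcm2*, *Chek1* or *Uhrf1*.

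Depth ranged from 11193136 to 109807664 reads counted on genes, and levels are given as CPM, the count of a gene relative to the total of its library, after TMM scaling. A gene was tested where its log2 CPM was over 1 in at least 25% of the 32 kidneys. Of the 48 genes, 45 passed, among 13961 genes in all, and *Orc1*, *E2f7* and *Exo1* did not. Another 8 (*Cdc6*, *Pole2*, *E2f8*, *Ccne1*, *Ccne2*, *Dtl*, *Chek1* and *Brca1*) were over this level in no wildtype kidney and passed only through the PKD groups. Tests are those of edgeR's quasi-likelihood method with p-values adjusted by Benjamini-Hochberg over all genes tested. *Pkd1*, the deleted gene, was between 53.1 and 86.4 CPM in the 8 wildtype kidneys, with a median of 66.4, between 70.7 and 113 in the PKD kidneys, with a median of 92.2, and between 67.4 and 120 in the PKD + Salsalate kidneys, with a median of 91.6. It was thus higher, not lower, in PKD kidneys, by 0.42 ± 0.11 (SE) on the log2 scale (adjusted p = 0.00134). Reads from the remaining exons and from cells without Cre are part of this count, so it does not check the deletion. The kidney markers *Slc34a1*, *Kap* and *Umod* had medians of at least 1923 CPM in each group. Of the wildtype libraries, 5 have names ending in R, which the other 3 and all PKD libraries do not, and 48.1% of all genes differed between these sets of wildtype libraries. PKD replicate 10 had 4884 CPM over 10 liver genes against 136 to 172 CPM in the other PKD kidneys.

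In PKD kidneys the replication genes were higher as a group. Among the 45 tested genes *Dtl*, *Uhrf1*, *E2f8* and *Rrm2* had the largest rises, of 3.93-fold or more, and *Dtl* and *E2f8* passed the filter only through the PKD groups. Of the 32 replication genes over the filter level in every kidney, 29 were called higher in PKD against wildtype, against 21.9% of all such genes. Their median log2 fold change was 0.64, against -0.02 over all such genes. With no filter on low counts, 43 of all 48 were called higher, against 12.2% of all genes, and *Orc1* (1.76 ± 0.33), *E2f7* (1.75 ± 0.21) and *Exo1* (2.36 ± 0.28) were among them, with adjusted p-values of 8.63e-05, 2.7e-08 and 3.3e-08. Over all genes that passed the filter, which some passed only where they were high, 42 of 45 were called higher (24.1% of all genes) and 0 lower (25% of all genes), and *Gmnn*, *Gins3* and *Tyms* were not called. For 24 of the 45 every PKD kidney was above every wildtype kidney, which held for 5.21% of all genes. These 24 include *Cdc6*, *E2f8*, *Ccne1*, *Ccne2*, *Dtl*, *Chek1* and *Brca1*, which passed the filter only through the PKD groups. In whole tissue, a change in the number of cells of a type and a change in RNA per cell cannot be told apart.

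Summed over the 48 genes, wildtype kidneys were between 336 and 400 CPM, PKD kidneys between 505 and 712 CPM and PKD + Salsalate kidneys between 468 and 649 CPM. The means were 369 ± 19.6 (SD, n = 8), 607 ± 53.7 (n = 12) and 522 ± 49.3 CPM (n = 12). Both PKD groups lay above the wildtype group without overlap, and they overlapped each other.

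**Figure D1:**
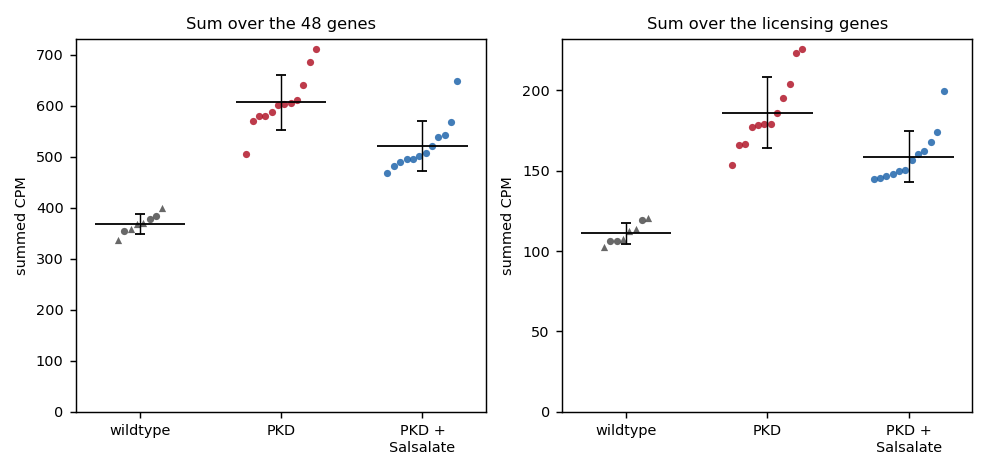
Summed CPM of the 48 replication genes (left) and of the 11 licensing genes among them (right) in each kidney. Points are kidneys (triangles are wildtype libraries with names ending in R), and lines and bars are the mean and SD. In both sums all PKD and PKD + Salsalate kidneys lie above all wildtype kidneys.

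Of the 11 licensing genes, 10 were tested and 9 rose in PKD kidneys, against 24.1% of all genes. Of these, *Cdc6* passed the filter only through the PKD groups. *Cdc6*, which recruits the helicase to origins, was between 0.669 and 1.2 CPM in wildtype kidneys (median 0.769), between 1.97 and 3.05 in PKD kidneys (median 2.51) and between 1.34 and 2.59 in PKD + Salsalate kidneys (median 1.88). Every PKD kidney was above every wildtype kidney, and the log2 fold change was 1.53 ± 0.15 (adjusted p = 4.6e-10). *Mcm5*, a subunit of the MCM ring, ranged from 6.02 to 8.97 CPM (median 6.86) in wildtype kidneys, from 14.3 to 25.4 (median 17.3) in PKD kidneys and from 11.5 to 20.6 (median 14.2) in PKD + Salsalate kidneys. It rose by 1.33 ± 0.12 on the log2 scale (adjusted p = 4.73e-11), again with no overlap. *Mcm3* (1.12 ± 0.13), *Mcm2* (0.89 ± 0.10), *Mcm6* (0.80 ± 0.08), *Mcm4* (0.79 ± 0.13) and *Mcm7* (0.56 ± 0.07) rose as well, the highest adjusted p being 8.13e-06. In all but *Mcm4* every PKD kidney was above every wildtype kidney. *Cdt1*, the loading partner of *Cdc6*, rose by 1.03 ± 0.11, and *Orc6*, a subunit of ORC, by 0.20 ± 0.07 (adjusted p = 0.0242, and 0.0544 in a fit of only the 2 groups). *Gmnn* encodes geminin, the inhibitor of *Cdt1*, and its levels of 10.9 to 15.3 CPM in wildtype and 10.9 to 19.1 CPM in PKD kidneys overlapped (0.19 ± 0.08, adjusted p = 0.0564). *Orc1*, the untested ORC subunit, was at 0 to 0.345 CPM in wildtype and 0.291 to 0.946 CPM in PKD kidneys.

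The 6 subunits of the MCM ring, which are joined in equal numbers, were at unequal RNA levels per length. In wildtype kidneys the level per kilobase of transcript was 8.41 ± 0.75 CPM for *Mcm7*, 7.53 ± 1.01 for *Mcm6*, 3.24 ± 0.49 for *Mcm2*, 1.58 ± 0.26 for *Mcm5*, 1.44 ± 0.42 for *Mcm3* and 1.33 ± 0.29 for *Mcm4* (SD, n = 8). The steps from *Mcm6* to *Mcm2* and from *Mcm2* to *Mcm5* were larger than these SDs. Other neighbours did not differ by more than the larger SD of the pair. Whether the levels of the subunits differ was not tested. The length was that of the annotated canonical transcript, while reads were counted per gene. For *Mcm2* this is 3371 bases, against 7921 over all annotated exons. The step from *Mcm2* to *Mcm5* and the order of *Mcm2*, *Mcm5*, *Mcm3* and *Mcm4* therefore depend on the length used. In PKD kidneys *Mcm6* (13.1 ± 2.08) and *Mcm7* (12.4 ± 1.22) again had the highest levels per kilobase of the 6 and *Mcm4* (2.28 ± 0.50) the lowest (SD, n = 12).

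The firing genes changed unevenly. *Gins1* and *Gins2* rose by 1.03 ± 0.14 and 1.01 ± 0.12 on the log2 scale, with adjusted p-values of 3.32e-07 and 2.18e-08. *Gins1* was between 1.22 and 2.94 CPM in wildtype and between 2.8 and 5.57 CPM in PKD kidneys. Their partners in the same complex had smaller values: *Gins4* rose by 0.20 ± 0.06 (adjusted p = 0.00842), while *Gins3* was at 0.26 ± 0.12 (adjusted p = 0.0643). *Cdc45* (0.25 ± 0.10, adjusted p = 0.0378) and *Mcm10* (0.18 ± 0.07, adjusted p = 0.0385), which act with GINS at the origin, were close to the threshold. Both lost the call under DESeq2, with no filter and with only the 2 groups fitted, with adjusted p-values between 0.0526 and 0.0881. The exons of *Gins2* overlap those of *Gse1* on the opposite strand over 67.3% of their length. Opposite-strand overlaps of 29% or more were also found for *Fen1* (65.9%), *Chaf1a* (51%), *Rfc5* (41.4%) and *Rfc4* (29%). The study counted reads by strand, but whether its setting matches the strand that the kit marks was not tested, so the values of these 5 genes are uncertain.

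All 12 genes of DNA synthesis rose, against 24.1% of all genes, and *Pole2* passed the filter only through the PKD groups. *Pole*, the catalytic subunit of the leading-strand polymerase, went from 2.08 to 3.19 CPM (median 2.78) in wildtype kidneys to 5.86 to 9.01 CPM (median 7.45) in PKD kidneys, a log2 fold change of 1.44 ± 0.12 (adjusted p = 3.1e-11). *Lig1*, the ligase that seals Okazaki fragments, was between 6.41 and 11.6 CPM in wildtype and between 15.8 and 25.8 CPM in PKD kidneys (1.16 ± 0.10, adjusted p = 1.41e-11). Neither gene overlapped between the groups. *Pole2*, the second subunit of that polymerase, rose by 1.05 ± 0.15, *Prim1*, which makes the RNA primers, by 0.79 ± 0.08 and *Pola1*, its polymerase partner, by 0.71 ± 0.12. *Pcna* went from a median of 29.4 CPM to 44.5 CPM (0.65 ± 0.09, adjusted p = 2.29e-07), and 11 of 12 PKD kidneys were above the highest wildtype kidney. *Fen1*, the flap nuclease, rose by 0.65 ± 0.10 and *Pold1*, of the lagging-strand polymerase, by 0.60 ± 0.09. The clamp loader genes *Rfc3* (0.49 ± 0.11), *Rfc4* (0.44 ± 0.10) and *Rfc5* (0.26 ± 0.08) and the single-strand binding gene *Rpa2* (0.30 ± 0.08) had the smallest rises of the 12, with adjusted p-values up to 0.00625.

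Among the genes of nucleotide supply, the subunits of ribonucleotide reductase, the enzyme that makes deoxyribonucleotides, rose by different amounts. *Rrm2*, the subunit made in S phase, was between 2.41 and 4.25 CPM in wildtype kidneys (median 3.75), between 7.78 and 21.7 in PKD kidneys (median 13.8) and between 7.44 and 17.3 in PKD + Salsalate kidneys (median 9.9). No PKD kidney overlapped the wildtype range, and the log2 fold change was 1.97 ± 0.17 (adjusted p = 3.63e-11). *Rrm1* rose by 0.95 ± 0.10 and *Tk1*, thymidine kinase, by 0.89 ± 0.13. *Tyms*, thymidylate synthase, was between 11.6 and 17.5 CPM in wildtype and between 12.2 and 19 CPM in PKD kidneys, and 1 of 12 PKD kidneys was above the highest wildtype kidney (0.15 ± 0.08, adjusted p = 0.111).

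All 6 genes that restore chromatin on new DNA rose, against 24.1% of all genes. *Uhrf1*, which brings the maintenance methyltransferase to hemimethylated DNA, was between 1.65 and 3.97 CPM in wildtype kidneys (median 2.59), between 8.78 and 17 in PKD kidneys (median 13.3) and between 7.18 and 15.4 in PKD + Salsalate kidneys (median 9.21). Its log2 fold change of 2.28 ± 0.16 in PKD kidneys had the lowest adjusted p of the 45 genes, 2.28e-13. *Dnmt1*, the methyltransferase itself, rose by 0.52 ± 0.07 from a median of 25.4 CPM. *Hells*, a chromatin remodeller, rose by 1.37 ± 0.16, and the chromatin assembly subunits *Chaf1b* and *Chaf1a* rose by 1.10 ± 0.13 and 0.63 ± 0.10. *Slbp*, which binds histone mRNA, rose by 0.38 ± 0.09 (adjusted p = 0.000456).

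All 5 tested control genes rose, against 24.1% of all genes. Of these, *E2f8*, *Ccne1*, *Ccne2* and *Dtl* were over the filter in no wildtype kidney and passed it only through the PKD groups. *Dtl*, which directs *Cdt1* to degradation in S phase, had the largest change of the 45 genes. It was between 0.19 and 0.863 CPM in wildtype kidneys (median 0.552), between 2.33 and 4.36 in PKD kidneys (median 3.37) and between 1.63 and 4.28 in PKD + Salsalate kidneys (median 2.34). Its log2 fold change was 2.55 ± 0.22 (adjusted p = 5.03e-11), with a lowest count of 3 reads in a wildtype kidney. *E2f8*, a repressor that is itself made in S phase, rose by 2.16 ± 0.22, and *E2f1*, an activator of the family, by 1.05 ± 0.11. The E-type cyclin genes *Ccne2* and *Ccne1*, which drive entry into S phase, rose by 1.30 ± 0.18 and 1.14 ± 0.14. The checkpoint genes *Brca1*, of homologous repair, and *Chek1*, a kinase that restrains S phase when replication stalls, rose by 1.80 ± 0.21 and 1.53 ± 0.16, with adjusted p-values of 2.04e-08 and 2.33e-09. Both also passed the filter only through the PKD groups.

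**Figure D2:**
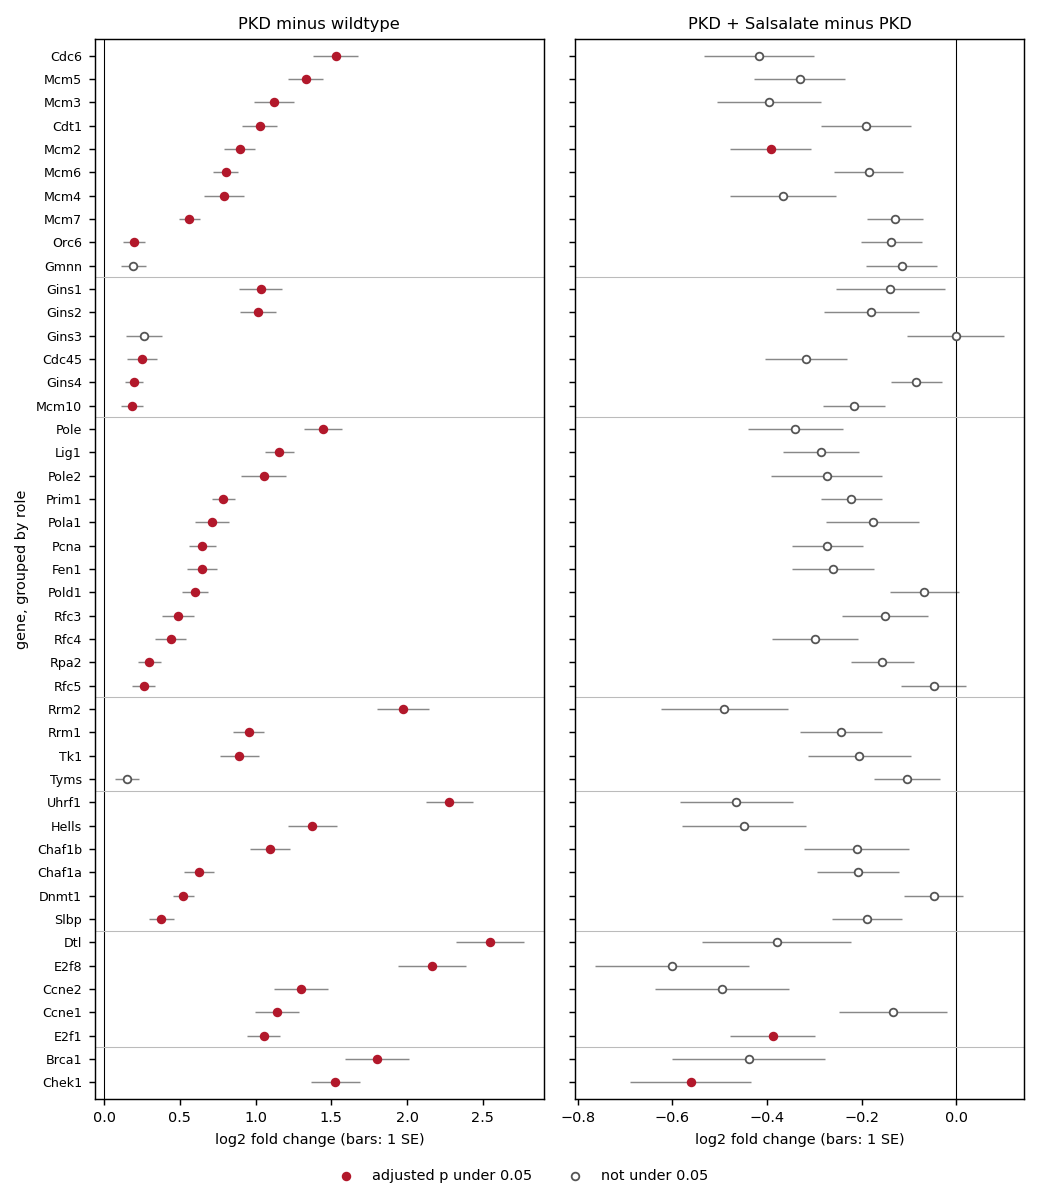
Log2 fold change of the 45 tested genes, grouped by role from licensing (top) to checkpoint (bottom), in PKD against wildtype kidneys (left) and PKD + Salsalate against PKD kidneys (right). Bars are 1 SE and filled points have an adjusted p under 0.05. All points on the left are above 0, with 42 filled, and all on the right are at or below 0, with 3 filled; the 2 panels share the PKD kidneys and have different scales.

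Most of the genes were called higher against either set of wildtype libraries, but not the same genes. Against the 5 libraries ending in R, 40 of the 45 genes were called higher in PKD kidneys (31% of all genes), with a median log2 fold change of 0.86. Against the other 3 they were also 40 (20.9% of all genes), with a median of 0.82. *Cdc45* was called against neither set (adjusted p = 0.0617 and 0.186), *Orc6* not against those ending in R (adjusted p = 0.118) and *Mcm10* not against the others (adjusted p = 0.225). Of the 45 genes, 6 differed between the sets of wildtype libraries, against 48.1% of all genes: *Mcm3*, *Rrm1* and *Tyms* were higher in those ending in R and *Cdt1*, *Gins4* and *Rfc5* lower. *Cdt1* had the largest such difference, -0.66 ± 0.14 on the log2 scale (adjusted p = 0.000304). *Gins4* and *Rfc5* were not called in PKD kidneys against the 3 other wildtype libraries (log2 fold changes of 0.04 and 0.03, adjusted p = 0.655 and 0.833). *Tyms* was called against those 3 (0.37, adjusted p = 0.00365) and not against the 5 ending in R (0.02, adjusted p = 0.809). *Gins3* likewise was called against those 3 (0.53, adjusted p = 0.008) and not against the 5 (0.10, adjusted p = 0.505).

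With salsalate the replication genes were slightly lower than in untreated PKD kidneys, and *Mcm2*, *E2f1* and *Chek1* fell by the test. All 45 log2 fold changes were negative, from -0.60 for *E2f8* to -0.0015 for *Gins3*, with a median of -0.22 against -0.01 over all genes. Only those 3 passed the adjusted threshold (0.329% of all genes were called lower). At an unadjusted p under 0.05, 30 of the 45 were lower, against 5.3% of all genes, and 20 of the 32 over the filter in every kidney, against 4.44% of all such genes. The genes are measured in the same kidneys and are not independent of each other. This comparison uses the same PKD kidneys as the one with wildtype, so a PKD kidney with a high level raises one difference and lowers the other.

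*Mcm2* was between 8.63 and 13.7 CPM in wildtype kidneys (median 10.4), between 16.4 and 28.6 in PKD kidneys (median 19) and between 13.1 and 19.7 in PKD + Salsalate kidneys (median 15.4). Of the 12 PKD + Salsalate kidneys, 9 were below the lowest PKD kidney. It fell by 0.39 ± 0.09 on the log2 scale (0.762-fold, adjusted p = 0.0222). *Mcm2* lies at chr6:88860452-88875762 on the minus strand of GRCm39.

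*E2f1* was between 4.02 and 6.31 CPM in wildtype kidneys (median 5.2), between 7.92 and 13.2 in PKD kidneys (median 10.6) and between 6.56 and 11.6 in PKD + Salsalate kidneys (median 7.88). It fell by 0.39 ± 0.09 on the log2 scale (0.764-fold, adjusted p = 0.0301), and 11 of 12 PKD + Salsalate kidneys were below the PKD median. *Chek1* was between 0.532 and 1.7 CPM in wildtype kidneys (median 1.26), between 2.38 and 4.19 in PKD kidneys (median 3.53) and between 1.27 and 3.11 in PKD + Salsalate kidneys (median 2.26). It fell by 0.56 ± 0.13 on the log2 scale (0.677-fold, adjusted p = 0.0292), and all 12 PKD + Salsalate kidneys were below the PKD median, although the groups overlapped. *E2f1* lies at chr2:154401326-154411812 and *Chek1* at chr9:36614487-36638361, both on the minus strand.

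**Figure D3:**
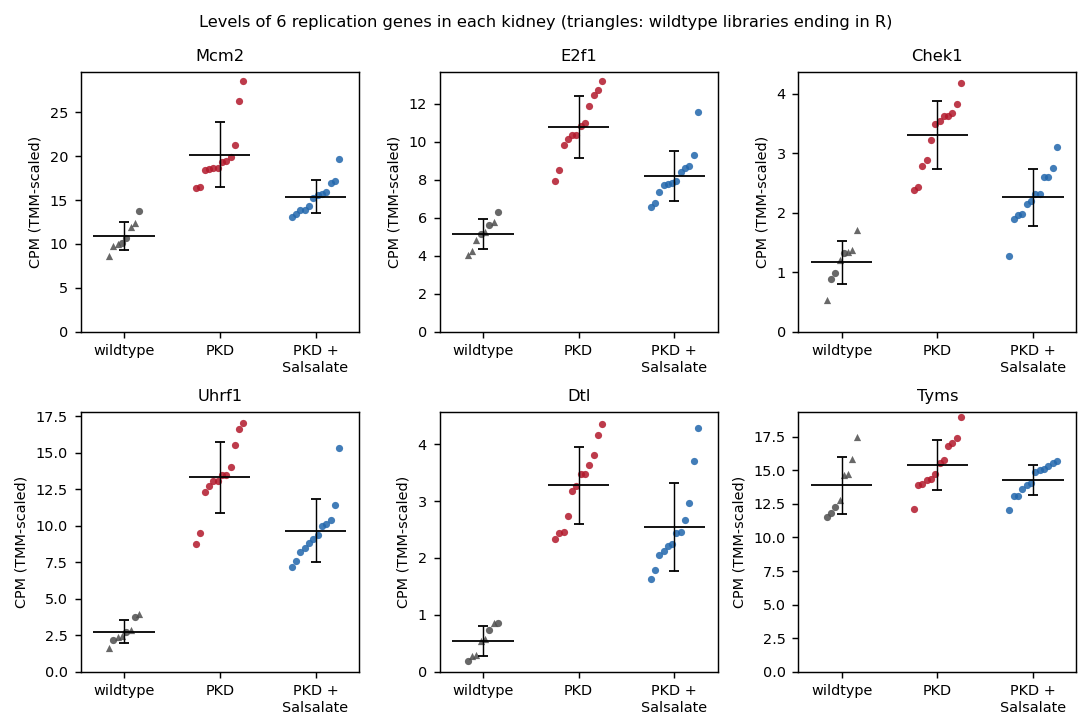
Level of 6 replication genes in each kidney, in CPM on axes that start at 0. Points are kidneys (triangles are wildtype libraries with names ending in R), and lines and bars are the mean and SD. *Uhrf1* and *Dtl* separate both PKD groups from wildtype, *Mcm2*, *E2f1* and *Chek1* are lower with salsalate, and *Tyms* overlaps in all 3 groups.

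The next genes by adjusted p were *Uhrf1* (-0.46 ± 0.12, adjusted p = 0.0573), *E2f8* (-0.60 ± 0.16, adjusted p = 0.0769), *Cdc45* (-0.32 ± 0.09, adjusted p = 0.0805) and *Rrm2* (-0.49 ± 0.13, adjusted p = 0.0808). *Dnmt1*, *Rfc5*, *Pold1* and *Gins3*, at -0.05, -0.05, -0.07 and -0.0015 with SEs of 0.06, 0.07, 0.07 and 0.10, had the smallest differences. The calls depended on single kidneys, as did those over all genes. Of all genes 81 were called in either direction with every kidney included, and between 39 (PKD + Salsalate replicate 5 left out) and 226 (replicate 11 of that group left out) with 1 kidney fewer. Without PKD + Salsalate replicate 11 there were 16, all lower: *Mcm2*, *Mcm3*, *Mcm4*, *Mcm5*, *Cdc6*, *Cdc45*, *Prim1*, *Pole*, *Pcna*, *Lig1*, *Rrm2*, *Uhrf1*, *Hells*, *E2f1*, *E2f8* and *Chek1*. Without PKD + Salsalate replicate 5 edgeR called 0, with 28 at an unadjusted p under 0.05. Without PKD replicate 3 there were 7, without wildtype replicate 3 there were 5, and without PKD replicate 9 or PKD + Salsalate replicates 1, 3 or 12 there was 1. Without PKD replicate 10, the kidney with high liver genes, there were 4, and the median log2 fold change lay between -0.27 and -0.21 with any kidney left out.

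The kidneys within a group differed across many of the genes at once. PKD + Salsalate replicate 11 had the highest level of its group for 30 of the 45 genes and the lowest for 0, whereas it was the highest for 14.9% of all genes tested. PKD replicate 9 was the highest of the PKD group for 17 of the 45 genes, against 7.27% of all genes, and PKD replicate 3 the lowest for 15, against 8.19%. The sum over 8 tubular injury genes was 3573 CPM in PKD + Salsalate replicate 11, against 1075 to 2000 CPM in the others of that group. It was 2724 CPM in PKD replicate 9, the highest of its group, and 1274 CPM in PKD replicate 3, where the lowest was 1241 CPM. The part of injury in these levels was not tested.

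**Figure D4:**
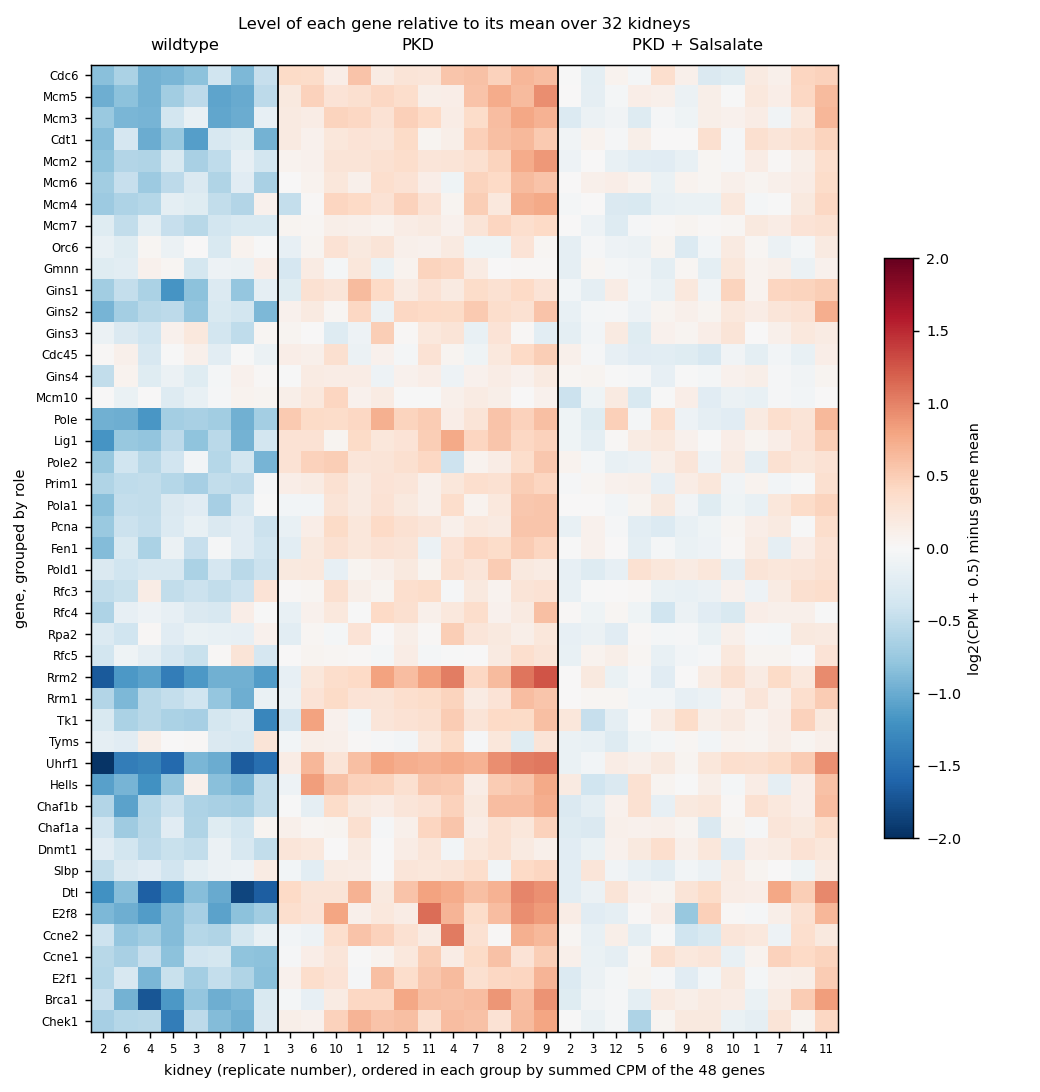
Level of the 45 tested genes in each of the 32 kidneys, as log2(CPM + 0.5) minus the mean of the gene over all kidneys. Genes are grouped by role, and kidneys are ordered within each group by the summed CPM of the 48 genes. PKD + Salsalate replicate 11, at the right edge, has the highest level of its group for 30 of the 45 genes.

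Compared with wildtype, most of the genes were still higher with salsalate. Of the 32 genes over the filter in every kidney, 22 were called higher, against 19.8% of all such genes, with a median log2 fold change of 0.43. Of all 45, 35 were called higher in PKD + Salsalate kidneys (21.8% of all genes) and 0 lower, with a median log2 fold change of 0.62. These 35 include the 8 genes that were over the filter in no wildtype kidney and passed it only through the PKD groups. For 2 of the 45 (*Cdc45* and *Mcm10*) the differences were negative, -0.07 ± 0.10 and -0.03 ± 0.07. For 16 of the 45, every PKD + Salsalate kidney was above every wildtype kidney, against 4.46% of all genes. Of the 8 genes over the filter in no wildtype kidney, *Cdc6*, *Ccne1*, *Dtl* and *Brca1* are in this set. *Pole2*, *E2f8*, *Ccne2* and *Chek1* are not. *Dtl* (2.17 ± 0.23) and *Uhrf1* (1.81 ± 0.15) again had the largest log2 fold changes. *Mcm2* was higher than in wildtype by 0.50 ± 0.10 (adjusted p = 0.000124), *E2f1* by 0.66 ± 0.11 (adjusted p = 5.85e-06) and *Chek1* by 0.97 ± 0.16 (adjusted p = 1.42e-05). The genes not called were *Orc6*, *Gmnn*, *Mcm10*, *Cdc45*, *Gins3*, *Gins4*, *Rfc4*, *Rpa2*, *Tyms* and *Slbp*.

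Other genes of the cell cycle were described from separate lists. Of 37 further replication genes tested, 22 were called higher and 5 lower in PKD kidneys, against 24.1% and 25% of all genes. With salsalate 0 passed, and edgeR gave 12 an unadjusted p under 0.05, all of them lower (5.3% of all genes). The PCNA-binding factor gene *Pclaf* (2.73 ± 0.22), the checkpoint mediator *Clspn* (2.28 ± 0.23), the histone chaperone *Asf1b* (1.34 ± 0.22) and *Atad2* (1.12 ± 0.13) had the largest log2 fold changes of that list in PKD kidneys. *Pclaf*, *Clspn* and *Asf1b* reached at most 1.12, 1.55 and 1.8 CPM in wildtype kidneys. They were under the filter level there and passed only through the PKD groups, and they are among those called higher. Of 24 genes that control entry into S phase, 12 rose and 4 fell in PKD kidneys, against 24.1% and 25% of all genes. Of the same 24, 0 passed edgeR's test with salsalate, and 5 were lower at an unadjusted p under 0.05 (5.3% of all genes). *Ccna2*, the cyclin of S phase and mitosis, rose by 2.06 ± 0.14, *Cdkn1a*, the inhibitor p21, by 1.84 ± 0.15, *Ccnd1*, the D-type cyclin, by 0.85 ± 0.08 and *Cdkn2c*, an inhibitor of its kinase, by 0.82 ± 0.11.

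Mitosis genes rose in PKD kidneys too, and some of them fell with salsalate. Of 24 tested, 22 rose in PKD kidneys (24.1% of all genes), with a median log2 fold change of 2.05, and 8 fell with salsalate (0.329% of all genes), where the median was -0.47. Some of the 24 were under the filter level in every wildtype kidney and passed only through the PKD groups. Among these were *Bub1*, *Nuf2* and *Aurkb*, with highest wildtype levels of 0.776, 1.04 and 1.09 CPM. The share called and the median in PKD kidneys thus depend in part on the filter. *Mki67* (2.77 ± 0.16), *Cenpf* (2.71 ± 0.17), *Tpx2* (2.48 ± 0.19) and *Nuf2* (2.47 ± 0.21), all of dividing cells, had the largest rises. *Bub1* (-0.72 ± 0.15), *Top2a* (-0.65 ± 0.14), *Ccnb2* (-0.60 ± 0.15), *Cdc20* (-0.56 ± 0.12), *Cdk1* (-0.54 ± 0.13), *Cdca8* (-0.53 ± 0.10), *Nusap1* (-0.51 ± 0.12) and *Cenpe* (-0.47 ± 0.10) fell with salsalate, with adjusted p-values from 0.00711 to 0.0474. Whether the lists differ was not tested.

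Markers of other cells and of injury also differed between PKD and wildtype kidneys. Of 14 leukocyte markers 8 were tested, and 7 rose and 1 fell in PKD kidneys, against 24.1% and 25% of all genes. The level summed over the 14 was between 90.1 and 130 CPM in wildtype, 166 and 211 CPM in PKD and 144 and 226 CPM in PKD + Salsalate kidneys. The pan-leukocyte gene *Ptprc* rose from a median of 15.4 to 40.1 CPM and the macrophage gene *Adgre1* from 3.91 to 10.8 CPM, whereas *Cd3e* was at medians of 0.827 to 1.18 CPM. All 8 injury genes, of which *Cdkn1a* is 1, rose in PKD kidneys, against 24.1% of all genes. Their sums were 243 to 512 CPM in wildtype, 1241 to 2724 CPM in PKD and 1075 to 3573 CPM in PKD + Salsalate kidneys. With salsalate 0 of the leukocyte and 0 of the injury markers passed edgeR's test, against 0.58% of all genes. At an unadjusted p under 0.05 they were 1 of 8 and 3 of 8, against 10.3% of all genes. The sum over 7 erythroid genes was between 249 and 810 CPM in wildtype and between 48.8 and 169 CPM in PKD kidneys. The part of these cells in the replication gene levels was not tested.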

How the data were processed

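The authors isolated poly(A) RNA from snap-frozen kidney tissue, prepared directional libraries and, per the labels, trimmed reads with cutadapt 2.10, aligned them with STAR 2.7.5a to GRCm39 and counted them per gene with HTSeq 0.12.4. They deposited raw read counts without normalization for 53700 genes and 32 kidneys. Between 16.9% and 26.4% of the alignments of a kidney were on the summary lines that name no gene and were left out. Total counts were between 11193136 and 109807664 per kidney, so the precision of low genes differs between kidneys.

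Gene symbols and positions came from GENCODE vM39, which held 52610 of the identifiers. Promoters were read from the GRCm39 genome at the start of the canonical transcript. The analysis used edgeR 4.0.16 under R 4.3.3 on genes with log2 CPM over 1 in at least 25% of kidneys, with TMM scaling and 1 quasi-likelihood fit of the 3 groups, with Benjamini-Hochberg adjustment over 13961 genes and a threshold of 0.05. Each kidney is from a separate mouse. CPM in the text are scaled by TMM. The code was tested on simulated data. The 48 genes and the other lists were chosen with earlier results of these data known. Of the lists of further replication, S-phase entry and mitosis genes, the text names the 4 tested genes with the largest change in PKD against wildtype and those called with salsalate. Marker lists are given by counts, summed levels and some defining markers. Alternatives were RLE factors, DESeq2 1.42.0, filterByExpr, no filter, a fit of just the 2 groups, a block for the replicate number, each kidney left out, and either set of wildtype libraries.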

Additional observations from a re-analysis of the deposited data

Results flagged for a closer look

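Within the 8 wildtype kidneys, 49 quantities (the 48 genes and their sum) were checked for a kidney far from the others by Dixon's ratio of the gap to the range, and 4 stood out. Chance gives about 1 in 20. *Prim1* was at 11.1 CPM in wildtype replicate 1 and next at 7.88 CPM (ratio 0.764), and *Tk1* was lowest in the same kidney, at 7.86 CPM against 12.6 CPM (ratio 0.539). *Hells* was at 4.83 CPM in wildtype replicate 3 against 3.03 CPM (ratio 0.563). *Chaf1b* was at 1.82 CPM in wildtype replicate 6 against 2.54 CPM (ratio 0.556).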

How the results depend on the processing

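The number of replication genes called in PKD against wildtype was between 39 and 45 under the 8 other settings and between 40 and 44 with any 1 kidney left out, and the median log2 fold change was between 0.84 and 0.92 with any kidney left out. Counts under another filter are not out of the same 45 genes: with no filter they were 43 of 48. For PKD + Salsalate against wildtype the number was between 34 and 37 and the median between 0.58 and 0.66 with a kidney left out. For PKD + Salsalate against PKD, where 3 genes were called, DESeq2 called 10, the fit of only the 2 groups 8, the fit with only the wildtype libraries ending in R 5 and that with only the others 9. With any 1 kidney left out this number was between 0 and 16 and the median between -0.27 and -0.21. Of the wildtype sets, between 5 and 8 genes differed with a wildtype kidney left out. The causes of these changes were not tested.

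With the replicate number as a block, 1 gene (*E2f1*) was called in PKD + Salsalate against PKD, 39 in PKD against wildtype and 34 in PKD + Salsalate against wildtype. The kidneys share only a number: the correlation of the deviations of same-numbered kidneys was between -0.554 and 0.467, and over 0.1 in 3 of 8, 2 of 12 and 3 of 8 pairs in the 3 comparisons.

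Of 5400 single-gene values under other settings, 5249 kept their direction and side of the threshold, 70 lost the call, 65 gained it and 16 changed sign. *Gins3* in PKD + Salsalate against PKD was at 0.00345 with RLE factors, 0.00526 with DESeq2, 0.00231 with no filter, 0.00258 with the block and 0.00461 with the R libraries, and between -0.0303 and 0.0489 with a kidney left out. In PKD + Salsalate against wildtype, *Tyms* was at -0.0849 with the R libraries, and *Gins4* and *Rfc5* at -0.0367 and -0.0197 with the others. Of the 32 fits with a kidney left out, *Mcm2* was called in 31, *Chek1* in 25 and *E2f1* in 20, with adjusted p-values from 0.00513 to 0.0699. *Cdc45*, *Mcm10* and *Orc6* lost the call in PKD against wildtype in 8, 9 and 2 of them. Low counts, down to 3 reads for *Dtl*, limit the precision of the low genes, and age and tamoxifen differed between wildtype and PKD mice.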
